A study of Mus musculus with 24 samples.

Results

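Expression was compared between plasmacytomas treated with pomalidomide plus dexamethasone and plasmacytomas treated with dexamethasone, with 3 arrays in each group, which are 6 of the 24 arrays of the series. The members were taken by their array titles, with no use of measured values. The tumours were grown under the skin of CB17-SCID mice from MM.1S, a human multiple myeloma cell line that is sensitive to glucocorticoids, injected with Matrigel. Mice with palpable tumours were randomised to the treatments. The first group received 8 mg/kg pomalidomide and 0.5 mg/kg dexamethasone, and the second group 0.5 mg/kg dexamethasone, by intraperitoneal injection for 2 days. Neither group received filanesib, an inhibitor of the kinesin spindle protein KIF11 that was given at 10 mg/kg in other groups. Both groups carried the glucocorticoid, so the comparison asks what pomalidomide added to it.

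The other 18 arrays held 3 further pairs of groups with and without pomalidomide, each of 3 arrays. They were pomalidomide against control, filanesib plus pomalidomide plus dexamethasone against filanesib plus dexamethasone, and filanesib plus pomalidomide against filanesib. The controls are labelled as untreated, whereas the protocol describes a vehicle. The model is 1 cell line in a host that lacks mature T and B lymphocytes but keeps innate immune cells, and whether each array came from its own animal is not stated in the labels. The p-values therefore reflect variation among these arrays, which may be technical. The organism given in the labels is the mouse, but the probe sets carry human gene symbols. The readings are thus of the human tumour, plus whatever host RNA hybridised to human probes.

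Pomalidomide binds cereblon (CRBN), the substrate receptor of a ubiquitin ligase built on CUL4 and DDB1, and sends IKZF1 and IKZF3, transcription factors of lymphoid cells, to the proteasome. In myeloma cells the loss of these factors is known to lower IRF4 and MYC, to slow entry into S phase and to raise interferon-stimulated genes. Dexamethasone activates the glucocorticoid receptor, which induces genes such as FKBP5 and, in lymphoid cells, the BH3-only death gene BCL2L11. Degradation acts on the protein, which these arrays did not measure.

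The tumour's plasma cell identity was checked on SDC1, which encodes the surface marker CD138. It averaged 10.14 ± 0.05 with pomalidomide plus dexamethasone and 10.05 ± 0.04 with dexamethasone on the log2 scale of the arrays (SD, n = 3 each). Correlations of levels between arrays lay between 0.985 and 0.992 within the groups and between 0.985 and 0.993 across them. The residual SD of the 6 arrays was 0.133 to 0.180. Array medians over the series lay between 3.65 and 3.73. The median SE of a difference was 0.14 on the log2 scale, and the number of arrays limits the precision.

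TCN2, CD68, PAG1 and PON2 rose when pomalidomide was added to dexamethasone, and no gene fell past the threshold. They were 4 of 14884 genes tested (0.0269%) at a limma p adjusted by the Benjamini-Hochberg method under 0.05. At an unadjusted p under 0.05, 825 genes differed (5.54%), of which 521 were higher (3.5%) and 304 lower (2.04%). The 2 groups did not overlap in 1669 genes (11.2%), of which 1021 were higher (6.86%) and 648 lower (4.35%) with pomalidomide.

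TCN2 encodes transcobalamin 2, which carries vitamin B12 in blood and delivers it to cells. Its level (probe set 16928988) was 8.44, 8.22 and 8.22 with pomalidomide plus dexamethasone (the combination), against 7.34, 7.22 and 6.90 with dexamethasone. Every combination array was well above every dexamethasone array. The difference was 1.14 ± 0.16 (SE), 2.21-fold, with a limma adjusted p of 0.00372. CD68, a glycoprotein of lysosomes and endosomes that is widely used as a macrophage marker, read 10.31, 10.02 and 9.99 with the combination, against 9.08, 9.02 and 8.91 with dexamethasone (probe set 16830577). Each array lay nearer to its own group than to the other group. The difference of 1.11 ± 0.18 was 2.15-fold (limma adjusted p = 0.0129).

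PON2 encodes a lactonase of intracellular membranes that limits oxidative stress. It read 8.99, 8.34 and 8.56 with pomalidomide plus dexamethasone, against 7.70, 8.04 and 7.65 with dexamethasone (probe set 17059932), with replicate 1 of the combination highest. The difference was 0.83 ± 0.15, 1.78-fold (limma adjusted p = 0.0299). PAG1 is a membrane adaptor of lipid rafts that recruits the kinase CSK, an inhibitor of SRC-family kinases. It read 5.50, 5.32 and 5.63 with the combination, against 4.82, 4.83 and 4.74 with dexamethasone (probe set 17078558). The difference was 0.69 ± 0.11, 1.61-fold (limma adjusted p = 0.0129).

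The same 4 genes were higher with pomalidomide in each of the 3 other pairs of groups, which share no array with this comparison. TCN2 was higher by 0.88 without another drug, by 0.73 beside filanesib plus dexamethasone and by 0.74 beside filanesib. CD68 was higher by 0.94, 0.78 and 1.15 in the same order, PON2 by 0.62, 0.50 and 0.56, and PAG1 by 0.47, 0.28 and 0.78. Taken as the mean of these 3 differences, 9 arrays against 9, all 4 passed the threshold, as did 547 genes in all (3.68%): TCN2 at 0.78 ± 0.09 (SE, limma adjusted p = 3.18e-05), CD68 at 0.96 ± 0.10 (adjusted p = 1.4e-05), PON2 at 0.56 ± 0.08 (adjusted p = 0.000409) and PAG1 at 0.51 ± 0.06 (adjusted p = 5.98e-05). The spread per gene in these fits was estimated from all 24 arrays.

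These calls depended on single arrays. Without pomalidomide plus dexamethasone replicate 1 no gene passed, and without its replicate 3 TCN2 alone did. Without dexamethasone replicate 3 the count was 6, of which TCN2 was the 1 shared gene. PON2 also missed the threshold without dexamethasone replicate 1, and CD68 without dexamethasone replicate 2. Over all omissions of an array the difference kept its sign, at 1.01 to 1.24 for TCN2, 1.0 to 1.17 for CD68, 0.65 to 0.98 for PON2 and 0.62 to 0.77 for PAG1.

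**Figure D1:**
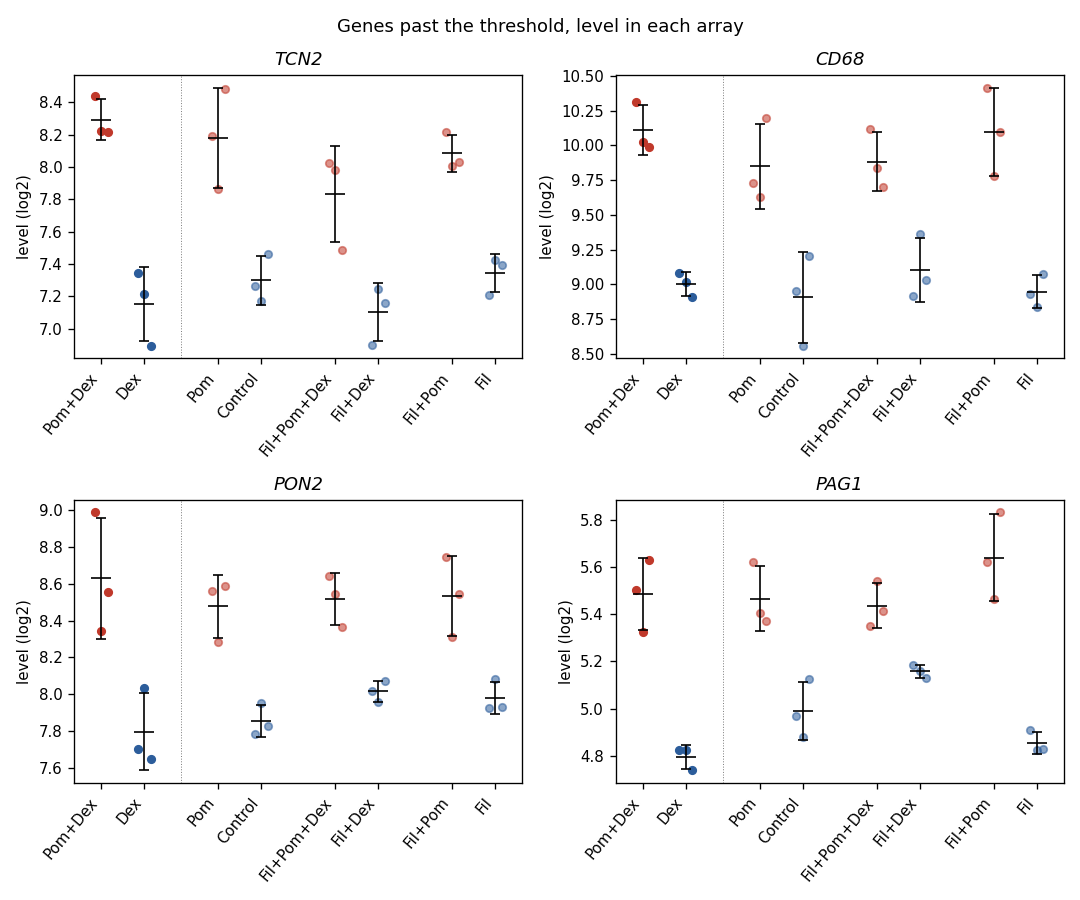
Log2 level of TCN2, CD68, PON2 and PAG1 in each array (points), with group mean and SD (bars), 3 arrays per group. The first pair of columns is pomalidomide plus dexamethasone and dexamethasone; the paler pairs are the other groups with (red) and without (blue) pomalidomide. In each panel all 3 arrays with pomalidomide lie above all 3 of the matching group, in all 4 pairs.

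**Figure D2:**
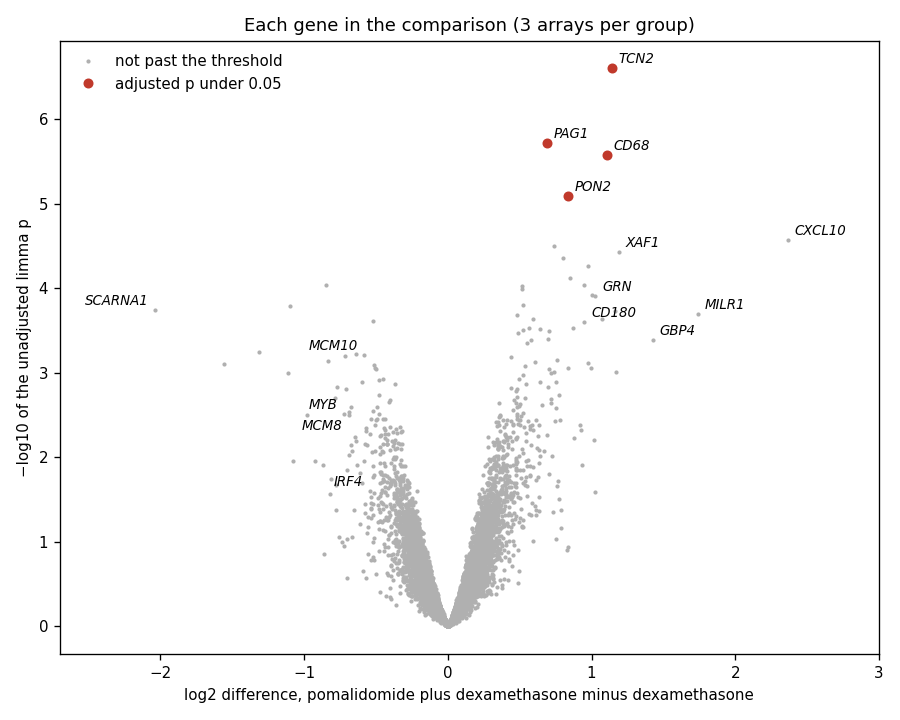
Difference between pomalidomide plus dexamethasone and dexamethasone (x axis, log2) against −log10 of the unadjusted limma p (y axis) for the 14884 genes. The 4 red points passed the threshold, and CXCL10, at 2.36, lies farthest to the right without passing it.

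Interferon response genes were mostly higher with pomalidomide, and none passed the threshold in this comparison. Of 69 genes listed, 48 were measured. Of these, 42 had a positive difference, against 53.6% of all genes, and the median difference was 0.30, against 0.01 over all genes. The 2 groups did not overlap in 21 members that were higher (background 6.86%) and in 1 that was lower (background 4.35%), SP110, a nuclear body protein, at -0.09. At an unadjusted p under 0.05, 19 members were higher (background 3.5%) and 0 lower (background 2.04%). The mean level over the 48 genes was between 5.86 and 6.13 in the arrays with pomalidomide plus dexamethasone and between 5.51 and 5.61 in those with dexamethasone.

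CXCL10, a chemokine that attracts T and NK cells through CXCR3, had the largest difference among them. It read 7.29, 7.36 and 7.39 with pomalidomide plus dexamethasone, against 6.16, 5.31 and 3.47 with dexamethasone. The combination arrays were nearly equal while the dexamethasone arrays were spread over more than 2 log2 units, with replicate 3 lowest. The difference was 2.36 ± 0.45 (5.15-fold, limma adjusted p = 0.0778), and 1.61 without dexamethasone replicate 3. XAF1, an interferon-induced partner of the apoptosis inhibitor XIAP, read 7.92, 7.40 and 7.68 with the combination, against 6.35, 6.56 and 6.52 with dexamethasone. Here the groups were separate, with the dexamethasone arrays closer together than the combination arrays. The difference was 1.19 ± 0.23 (2.28-fold, limma adjusted p = 0.0792).

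GBP4, a guanylate-binding GTPase of cell-autonomous defence, read 7.74, 7.71 and 6.88 with the combination, against 5.64, 6.18 and 6.23 with dexamethasone (1.43 ± 0.35, limma adjusted p = 0.176). IFI44, a cytoplasmic interferon-induced protein, read 5.25, 3.93 and 4.73 with the combination, against 3.55, 3.75 and 3.69 with dexamethasone (0.97 ± 0.25, limma adjusted p = 0.253). In IFI44 replicate 2 of the combination lay only just above the dexamethasone arrays. The members that did not go this way were SP100, CXCL11, SAMD9L, SP110, GBP5 and ISG20, with differences between -0.16 and -0.06.

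In the 3 other pairs the list's median was 0.42 without another drug, 0.55 with filanesib and 0.49 with filanesib plus dexamethasone. Over those 18 arrays 30 of the 48 members rose and 0 fell, against 1.45% of all genes that rose. XAF1 rose there by 1.70 ± 0.14 (limma adjusted p = 1.21e-07), CXCL10 by 1.80 ± 0.26 (adjusted p = 0.000314), GBP4 by 1.23 ± 0.20 (adjusted p = 0.000794) and IFI44 by 1.59 ± 0.15 (adjusted p = 9.42e-07). No member passed in the test of the effect beside dexamethasone minus that alone (5 of 14884 genes did, 0.0336%), where XAF1 was at -0.31 ± 0.33 and CXCL10 at 0.36 ± 0.64. Without dexamethasone replicate 3 the 2 groups did not overlap in 26 members that were higher, against 12% of all genes. CXCL10 passed the threshold in 3 of 24 omissions of a single array and in 3 of 12 other alternatives, and XAF1 in 1 and 3. Both passed when dim genes were left out and with array weights. XAF1 also passed in the fit to the compared groups alone, and CXCL10 without dexamethasone replicate 1.

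**Figure D3:**
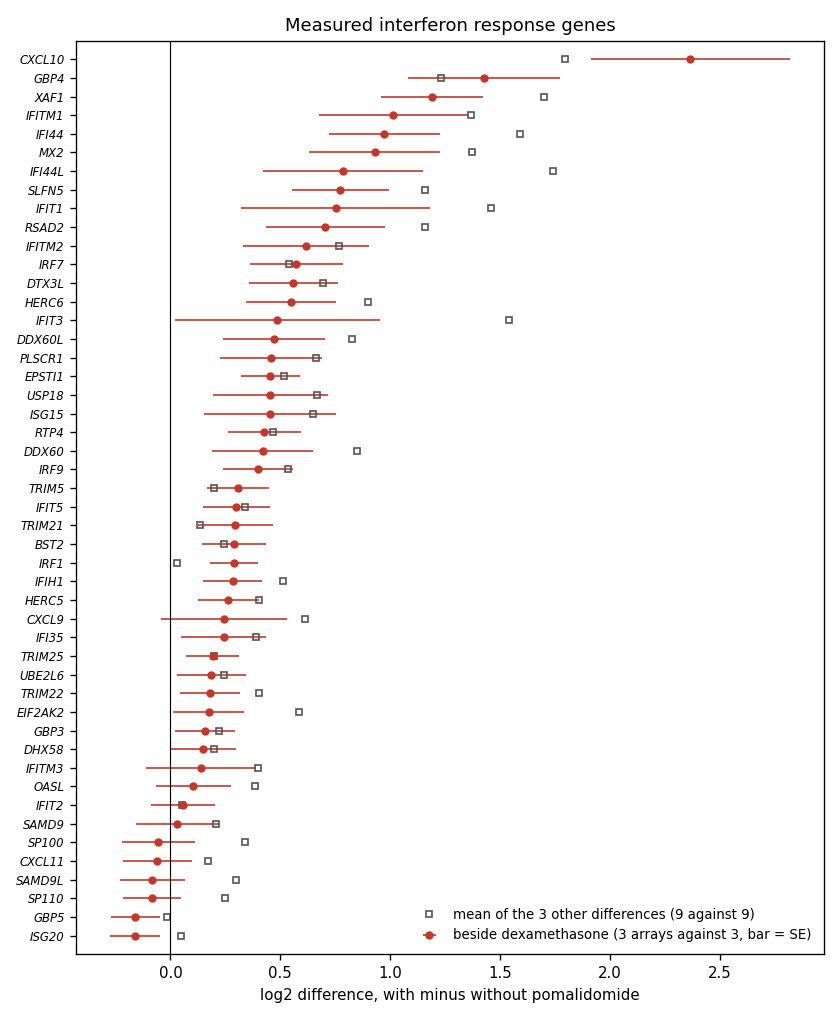
Log2 difference with minus without pomalidomide (x axis) for the 48 measured interferon response genes (y axis), ordered by the difference beside dexamethasone (red points, bars are 1 SE, 3 arrays against 3). Open squares are the mean of the 3 other differences (9 arrays against 9). Red points lie right of 0 for 42 genes.

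Genes of DNA replication and the G1/S step were mostly lower with pomalidomide, and none passed the threshold. Of 55 listed, 34 were measured, 32 had a negative difference (background 46.4%) and the median was -0.25. The 2 groups did not overlap in 23 members, all lower (background 4.35%), and 11 had an unadjusted p under 0.05, all lower (background 2.04%). The mean level over the 34 genes was 6.82 to 6.90 in the arrays with pomalidomide plus dexamethasone and 7.08 to 7.16 in those with dexamethasone. In bulk tumour RNA, fewer cells in a phase and less RNA per cell cannot be told apart.

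MCM10, which is needed to activate the replicative helicase at origins, read 5.86, 5.98 and 5.69 with the combination, against 6.42, 6.52 and 6.33 with dexamethasone. Every combination array was below every dexamethasone array, and the difference was -0.58 ± 0.15 (limma adjusted p = 0.234). It passed only with array weights among the alternatives tried. MCM8, a helicase of recombination repair, read 7.91, 8.27 and 8.03 with the combination, against 8.45, 8.74 and 9.07 with dexamethasone (-0.69 ± 0.21, limma adjusted p = 0.459). The sister chromatid cohesion acetyltransferase ESCO2 differed by -0.51 ± 0.16 and the histone mRNA binding protein SLBP by -0.44 ± 0.14 (limma adjusted p = 0.47 and 0.503).

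CDC45, a subunit of the replicative helicase, read 6.20, 6.26 and 6.34 with pomalidomide plus dexamethasone, against 6.85, 6.43 and 6.41 with dexamethasone (-0.30 ± 0.14). Its groups were barely separate. TYMS, the thymidylate synthase, read 8.43, 8.57 and 8.43 with the combination, against 8.76, 8.85 and 8.65 with dexamethasone (-0.28 ± 0.16). Neither passed (limma adjusted p = 0.879 for CDC45 and 0.972 for TYMS). The only positive differences in the list, both 0.01, were those of CDC7, a kinase that fires origins, and E2F7, a repressor of E2F targets.

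Over the other 18 arrays, 26 of the 34 replication genes fell and 0 rose, against 2.22% of all genes that fell. MCM10 fell by 0.50 there (SE 0.08, limma adjusted p = 0.0012), CDC45 by 0.56 (SE 0.08, adjusted p = 0.000314) and TYMS by 0.56 (SE 0.09, adjusted p = 0.000794). The list's median was -0.63 for pomalidomide without another drug, -0.32 with filanesib and -0.34 with filanesib plus dexamethasone. The median of -0.25 beside dexamethasone was thus the nearest to 0 of the 4, and no member passed the test of the difference between the effect beside dexamethasone and that alone. The median SE in that test was 0.20 over all genes, against 0.14 for a difference between 2 groups. It could therefore miss gaps of this size.

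**Figure D4:**
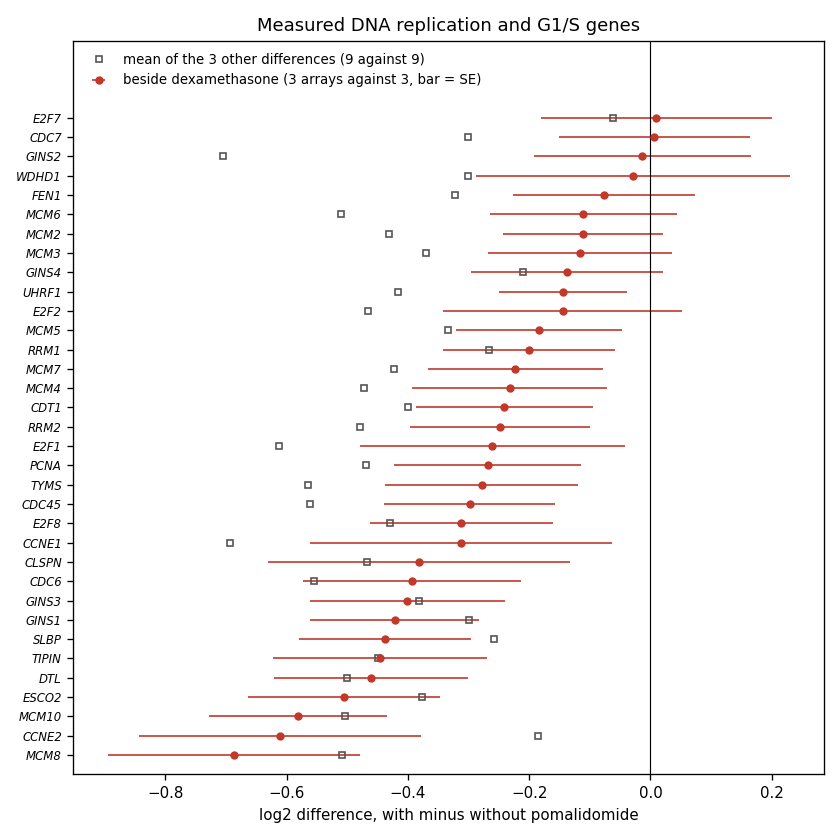
Log2 difference with minus without pomalidomide (x axis) for the 34 measured replication and G1/S genes (y axis), drawn as for the interferon genes. Red points beside dexamethasone lie left of 0 for 32 genes, and the open squares of the other 18 arrays lie left of 0 for all 34.

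Mitotic genes were balanced between the directions beside dexamethasone, and none passed the threshold. Of 59 listed, 44 were measured, of which 22 had a positive and 22 a negative difference, with a median of 0.00. The 2 groups did not overlap in 2 members, both lower (background 4.35%), and in 7 without dexamethasone replicate 3, all lower (background then 9.56%). MAD2L1, a spindle checkpoint protein, read 5.20, 5.41 and 5.13 with the combination, against 5.64, 5.73 and 5.79 with dexamethasone (-0.48 ± 0.14, limma adjusted p = 0.459). The microtubule-binding NUSAP1 was at -0.38 ± 0.15 and BIRC5, which encodes survivin, at -0.30 ± 0.20. Cyclin B1 (CCNB1) was at 0.19 ± 0.21 and the kinesin KIF11 at -0.12 ± 0.20, both with overlapping groups.

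No receptor of the B lineage or of innate immunity passed the threshold. Of 35 listed, 25 were measured, 8 were higher (background 6.86%) and 1 lower (background 4.35%) without overlap, and the median was 0.13. MILR1, an inhibitory immunoglobulin-like receptor of mast and other myeloid cells, read 7.16, 6.26 and 6.18 with pomalidomide plus dexamethasone, against 4.91, 4.59 and 4.88 with dexamethasone. The nearest arrays of the 2 groups were more than 1 log2 unit apart, and the difference was 1.74 ± 0.39 (3.34-fold, limma adjusted p = 0.14). MILR1 rose by 1.77 ± 0.23 in the other 18 arrays (limma adjusted p = 9.26e-05). In this comparison it passed in 1 of 24 omissions of a single array and in 3 of 12 other alternatives. Among the latter were array weights and the fit to the compared groups alone.

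CD180, a Toll-like receptor homologue of B cells, read 6.28, 6.35 and 6.14 with the combination, against 5.53, 5.67 and 4.73 with dexamethasone (0.95 ± 0.22, limma adjusted p = 0.144; 0.66 without dexamethasone replicate 3). TLR4, the endotoxin receptor, read 6.49, 6.23 and 6.25 with the combination, against 6.02, 5.88 and 5.75 with dexamethasone (0.44 ± 0.11, limma adjusted p = 0.235). Both had all combination arrays above all dexamethasone arrays. BLNK, the adaptor that links the B cell receptor to its downstream kinases, read 8.60, 7.94 and 7.92 with the combination, against 7.66, 7.62 and 7.62 with dexamethasone (0.52 ± 0.16). CD180, TLR4 and BLNK rose over the other 18 arrays, by 0.70 ± 0.13, 0.38 ± 0.06 and 0.50 ± 0.09 (limma adjusted p = 0.00228, 0.00122 and 0.00242). Of the 25 measured receptors, 4 rose there, against 1.45% of all genes, and 2 fell, against 2.22%.

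No surface or identity gene of plasma cells passed the threshold. Of 40 listed, 23 were measured, and 5 were higher (background 6.86%) and 2 lower (background 4.35%) without overlap. The chemokine receptor CCR1 read 9.81, 9.82 and 9.67 with the combination, against 9.32, 9.33 and 8.96 with dexamethasone (0.56 ± 0.13, limma adjusted p = 0.154), and CCR2 was at 0.35 ± 0.14. CD48, a ligand of the NK cell receptor CD244, read 8.32, 8.82 and 8.81 with the combination, against 9.0, 9.13 and 8.87 with dexamethasone (-0.35 ± 0.13, limma adjusted p = 0.679). The antibody targets SLAMF7 and CD38 were at 0.18 ± 0.12 and 0.11 ± 0.10, with 95% intervals of -0.06 to 0.43 and -0.09 to 0.32. In the arrays outside this comparison, 2 of the 23 measured rose, against 1.45% of all genes, and 1 fell, against 2.22%. CCR1 rose there by 0.35 ± 0.08 and CD38 by 0.21 ± 0.06 (limma adjusted p = 0.00961 and 0.0409). CD48 fell there, at -0.30 ± 0.08 (limma adjusted p = 0.0304), but was at 0.19 ± 0.13 with pomalidomide alone. SLAMF7 was at -0.04 ± 0.07 there.

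Lysosomal and phagocytic genes held CD68, the 1 list member that rose. Of 33 listed, 21 were measured, 7 were higher (background 6.86%) and 0 lower (background 4.35%) without overlap, 17 had a positive difference (background 53.6%) and the median was 0.08. GRN, which encodes progranulin, a secreted protein processed in lysosomes, read 10.64, 9.98 and 10.12 with pomalidomide plus dexamethasone, against 9.39, 9.33 and 8.93 with dexamethasone. The groups were separate, and the difference of 1.03 ± 0.22 was 2.04-fold (limma adjusted p = 0.114); GRN rose by 0.83 ± 0.13 in the other 18 arrays (limma adjusted p = 0.000546) and passed here with array weights. The cysteine proteases CTSB and CTSZ were at 0.49 ± 0.15 and 0.39 ± 0.12 here, and CTSZ was at -0.08 ± 0.07 in the other 18 arrays.

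Markers of macrophages, which also express CD68, were examined beside it. Of 20 listed, 9 were measured, CD68 alone passed, and the median difference was 0.07. The mean level of the 9 was 4.98 to 5.04 in the combination arrays and 4.81 to 4.87 in the dexamethasone arrays. That mean includes CD68: over the other 8 markers it was 4.31 to 4.42 in the combination arrays and 4.29 to 4.35 in the dexamethasone arrays, which overlap. The receptor CSF1R averaged 4.40 with the combination and 4.44 with dexamethasone, and CD163 averaged 2.91 with the combination and 3.00 with dexamethasone. CD14 averaged 3.13 with the combination and 3.06 with dexamethasone, and TYROBP 4.15 with the combination and 4.12 with dexamethasone. Without overlap, 3 of the 9 were higher (background 6.86%) and 0 lower (background 4.35%). Besides CD68 these were LYZ (0.20 ± 0.10) and MSR1 (0.18 ± 0.20), both at low levels. The other probe set of LYZ was at -0.05 ± 0.11. Whether host macrophages contributed to CD68 was not tested.

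No marker of the other cell types passed. Mouse host cells register on these human probes only by cross-hybridisation, so the lack of a call says little about them. The measured markers numbered 8 for neutrophils, 8 for T and NK cells, 10 for endothelium, 4 for fibroblasts, 5 for smooth muscle and pericytes, 6 for adipocytes, 7 for keratinocytes and 1 for red blood cells. Without overlap, 1 fibroblast marker was higher (background 6.86%), and 1 T and NK cell marker and 1 adipocyte marker were lower (background 4.35%). Of the 4 fibroblast markers, 3 had a positive and 1 a negative difference, with a median of 0.09. FN1, the fibronectin gene listed for fibroblasts, was the marker with the smallest p among all these cell types. It read 6.86, 6.83 and 6.95 with the combination, against 6.51, 6.64 and 5.92 with dexamethasone (0.52 ± 0.20, limma adjusted p = 0.66), and 0.30 without dexamethasone replicate 3.

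Transcripts of the drug's own machinery did not pass the threshold. CRBN read 7.41, 7.03 and 7.11 with pomalidomide plus dexamethasone, against 7.02, 7.19 and 7.26 with dexamethasone. The groups overlapped, with a difference of 0.02 ± 0.11 (95% interval -0.21 to 0.26). CRBN rose by 0.60 ± 0.11 with pomalidomide alone (limma adjusted p = 0.0105) and by 0.25 ± 0.07 over the other 18 arrays (limma adjusted p = 0.0296). The effect beside dexamethasone minus that alone was -0.57 ± 0.16 in CRBN, which did not pass (limma adjusted p = 0.39). IKZF1 read 7.91, 7.72 and 7.77 with the combination, against 7.39, 7.46 and 7.69 with dexamethasone (0.29 ± 0.13, limma adjusted p = 0.869), and IKZF3, dim on this array, was at 0.11 ± 0.20. Of 30 genes listed for the ligase and its substrates, 19 were measured, 3 were higher (background 6.86%) and 1 lower (background 4.35%) without overlap, and none passed. The scaffold CUL4B was at 0.28 ± 0.14. MEIS2, a homeobox factor and natural substrate of cereblon, was at -0.45 ± 0.14 (limma adjusted p = 0.459), whereas its other probe set, at a lower level, was at 0.11.

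IRF4, the transcription factor on which myeloma cells depend, read 9.48, 9.86 and 10.07 with the combination, against 9.87, 10.38 and 10.78 with dexamethasone. The groups overlapped, and the difference was -0.54 ± 0.23 (95% interval -1.01 to -0.07, limma adjusted p = 0.792). IRF4 fell by 0.54 (SE 0.13) in the other 18 arrays (limma adjusted p = 0.0212). MYC read 10.30, 10.62 and 10.34 with the combination, against 10.41, 10.64 and 10.50 with dexamethasone (-0.10 ± 0.13, 95% interval -0.36 to 0.17). The groups overlapped.

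Among other genes of the IRF4 and MYC list (21 measured of 27, 3 higher and 2 lower without overlap, against 6.86% and 4.35% of all genes, none passing), MYB had the largest negative difference. MYB, a transcription factor of immature blood cells, read 4.32, 3.96 and 4.33 with the combination, against 4.40, 4.97 and 5.41 with dexamethasone (-0.72 ± 0.22, limma adjusted p = 0.459; -0.48 without dexamethasone replicate 3). It fell by 0.83 (SE 0.13) in the other 18 arrays (limma adjusted p = 0.000409). KLF6, a zinc finger factor, read 8.40, 8.23 and 8.15 with the combination, against 7.71, 7.99 and 7.64 with dexamethasone (0.48 ± 0.11, limma adjusted p = 0.14), and was at 0.18 ± 0.06 in the other 18 arrays. MXI1, a MAX partner that opposes MYC, was at 0.29 ± 0.11, and at -0.27 ± 0.13 by its other probe set.

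**Figure D5:**
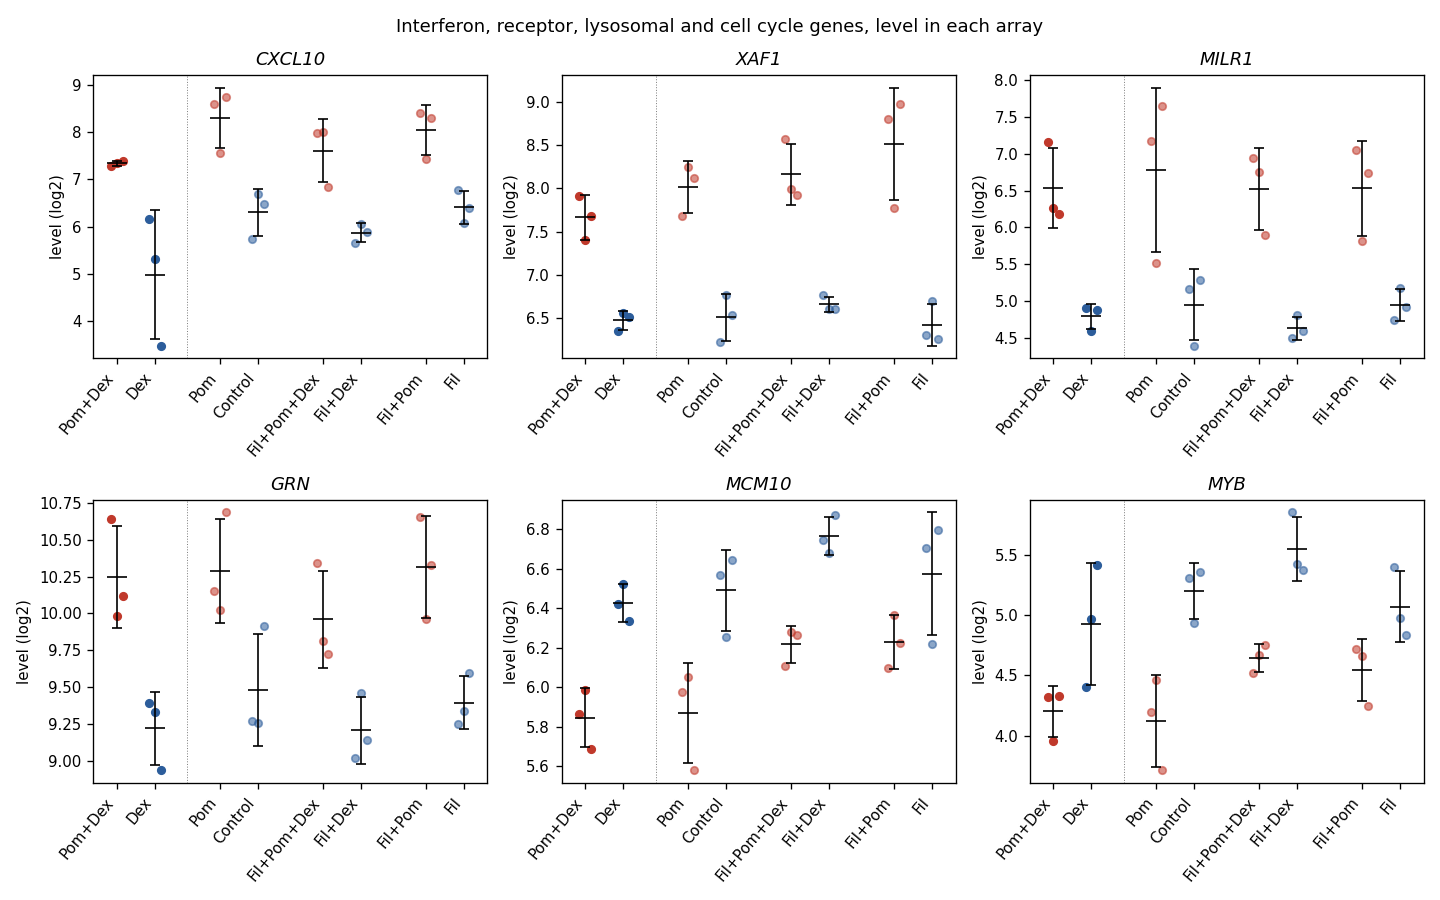
Log2 level of CXCL10, XAF1, MILR1, GRN, MCM10 and MYB in each array (points), with group mean and SD (bars), 3 arrays per group. The first pair of columns is pomalidomide plus dexamethasone and dexamethasone. All combination arrays lie above all dexamethasone arrays for CXCL10, XAF1, MILR1 and GRN, and below them for MCM10 and MYB.

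Glucocorticoid receptor targets had a median difference of -0.05. Of 40 listed, 28 were measured, 1 was higher (background 6.86%) and 1 lower (background 4.35%) without overlap, and none passed. FKBP5, a chaperone that the receptor induces, read 5.28, 5.50 and 5.31 with pomalidomide plus dexamethasone, against 5.30, 5.44 and 5.63 with dexamethasone (-0.09 ± 0.17, 95% interval -0.44 to 0.25). HSD11B1, which regenerates active glucocorticoid, read 5.82, 4.88 and 4.68 with the combination, against 4.07, 4.43 and 4.55 with dexamethasone (0.77 ± 0.34, limma adjusted p = 0.816), with replicate 1 of the combination well above the rest. It rose by 0.94 ± 0.19 in the other 18 arrays (limma adjusted p = 0.00654). The kinase SGK1 was at 0.34 ± 0.13 (0.17 without dexamethasone replicate 3), and the metallothioneins MT1F and MT1X were at 0.40 ± 0.18 and -0.54 ± 0.25.

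Death genes of the BCL2 family did not pass either. Of 34 listed, 23 were measured, 3 were higher (background 6.86%) and 0 lower (background 4.35%) without overlap, and the median was 0.06. The separate members were BMF, BNIP3 and BBC3, which encode BH3-containing proteins that promote cell death. BMF read 7.55, 7.09 and 6.98 with the combination, against 6.69, 6.89 and 6.67 with dexamethasone (0.45 ± 0.14, limma adjusted p = 0.47), while its other, dim probe set was at -0.07. BMF rose by 0.38 ± 0.08 in the other 18 arrays (limma adjusted p = 0.00986). BNIP3 was at 0.39 ± 0.13 and BBC3 at 0.34 ± 0.17 (limma adjusted p = 0.521 and 0.904). In the other 18 arrays BNIP3 was at 0.07 and BBC3 at 0.0046 (limma adjusted p = 0.727 and 0.99).

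BCL2L11, which encodes BIM, read 7.54, 6.95 and 7.22 with the combination, against 6.80, 7.21 and 7.81 with dexamethasone. Its arrays overlapped widely, at -0.04 ± 0.21 (95% interval -0.47 to 0.40). The survival gene MCL1 was at 0.09 ± 0.12 (95% interval -0.16 to 0.33).

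Immediate early genes, which respond within minutes to signalling, had a median difference of 0.20 over 22 measured of 33 listed, with 17 positive (background 53.6%). The median was 0.08 without dexamethasone replicate 3. In the other pairs it was -0.25 for pomalidomide without another drug, 0.02 with filanesib and 0.11 with filanesib plus dexamethasone. The 2 groups did not overlap in 6 members, all higher (background 6.86%), and none passed. IER5 read 7.96, 8.10 and 7.65 with the combination, against 7.91, 7.52 and 6.50 with dexamethasone. Dexamethasone replicate 3 was far below the other arrays, and the difference of 0.59 ± 0.22 was 0.19 without it. DUSP5, a phosphatase of ERK, was at 0.35 ± 0.12 and at 0.18 without that array, and the small MAF protein gene MAFF at 0.24 ± 0.10.

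Array 3 of dexamethasone was likewise the lowest of the 6 arrays in ICAM1, an adhesion molecule induced by NF-kB. ICAM1 read 6.74, 6.83 and 6.40 with the combination, against 6.79, 5.93 and 5.35 with dexamethasone (0.64 ± 0.23, limma adjusted p = 0.639; 0.30 without that array). In ADM, the hypoxia-induced adrenomedullin, it was lowest too, with 8.13, 8.05 and 8.05 in the combination arrays, against 7.86, 7.97 and 6.96 with dexamethasone (0.48 ± 0.17; 0.16 without that array).

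The remaining lists had medians near 0 and no member past the threshold. The median was 0.04 over 20 TNF and NF-kB genes, 0.04 over 16 chaperones and unfolded protein response genes, -0.09 over 14 genes of the amino acid response, 0.02 over 27 cholesterol and fatty acid genes, -0.02 over 18 hypoxia and glycolysis genes and 0.07 over 4 antigen presentation genes. PSAT1, an enzyme of serine synthesis under ATF4, read 7.06, 7.18 and 7.60 with the combination, against 7.57, 7.84 and 7.75 with dexamethasone (-0.44 ± 0.17, limma adjusted p = 0.706). It fell by 0.50 (SE 0.10) in the other 18 arrays (limma adjusted p = 0.00395).

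Across genes, the differences beside dexamethasone and the mean of the 3 other differences had a Pearson correlation of 0.45, given as a description since genes are not independent replicates. Of the 825 genes at an unadjusted p under 0.05, 655 (79.4%) had the same sign in the other 18 arrays, against 59.0% of all genes. Of the 56 at an unadjusted p under 0.001, 51 had the same sign and 38 passed the threshold there, against 3.68% of all genes. Both tests used the same spread per gene, so a gene with a small spread passes more easily in both.

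The effect of pomalidomide beside dexamethasone was also set directly against its effect alone and against its effect beside filanesib plus dexamethasone. In the first test 5 genes passed (0.0336% of 14884) and 1163 had an unadjusted p under 0.05 (7.81%). They were SCARNA10, SCARNA1, SCARNA6 and SCARNA3, small RNAs of Cajal bodies that guide modification of spliceosomal RNA, and the zinc finger gene ZSCAN16. SCARNA1 read 2.67, 3.45 and 3.12 with pomalidomide plus dexamethasone, against 5.76, 4.68 and 4.91 with dexamethasone, and 5.32, 3.89 and 4.99 with pomalidomide, against 2.79, 2.63 and 2.53 in control. The combination and control arrays, the lower side of each difference, were dim, below the array medians of 3.65 to 3.73. The 2 differences, -2.04 and 2.08, ran in opposite directions, and differed by -4.12 ± 0.65 (limma adjusted p = 0.0123). Of the 24 omissions of a single array, SCARNA10 and SCARNA1 missed the threshold in 3 each, SCARNA6 in 15, SCARNA3 in 18 and ZSCAN16 in 20. The 3 arrays of pomalidomide alone, on which this test rests, had residual SDs of 0.193 to 0.288, the highest of the series.

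In the second test no gene passed by limma, and 427 had an unadjusted p under 0.05 (2.87%). The smallest p belonged to the zinc finger gene ZNF534, whose effects were 0.31 beside dexamethasone and -0.42 beside filanesib plus dexamethasone, a difference of 0.73 ± 0.16. MINPP1, an inositol polyphosphate phosphatase, was at 0.44 and -0.30.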

How the data were processed

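The authors deposited 1 log2 value for each probe set and array. Per the submitters' processing notes, these came from RMA, which corrects background, equalises quantiles and summarises probes, run in Affymetrix Expression Console; the version of that program is not given in the sources used here. In all, the table held 53617 probe sets between 1.26 and 13.6. Because quantiles were equalised, a shift common to nearly all genes cannot be seen. Of the probe sets, 16098 had 1 gene symbol and 37519 none. For 779 genes with several, the brightest on average was kept, giving 14884 genes.

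With limma 3.58.1 in R 4.3.3, group means were estimated in 1 model of all 24 arrays (16 residual degrees of freedom, eBayes, two-sided, Benjamini-Hochberg over all genes, threshold 0.05). In simulated data for the main comparison (14884 genes), 44 of 100 genes changed by 0.5, 93 of 100 changed by 1 and 100 of 100 changed by 1.5 (log2) were recovered, with 10 false calls. For the effect beside dexamethasone minus that alone, 14, 72 and 94 of 100 were recovered in the same order, with 13 false calls. The simulated noise was normal, and far more genes were changed than were called in the real comparison, which eases the adjusted threshold. These rates do not carry over to the real comparison, where CXCL10 at 2.36 and MILR1 at 1.74 did not pass.

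Members, lists and tests were chosen with earlier results of these data known, among them the average effect of pomalidomide, so patterns shared with the other arrays are no independent support. Named genes were the called genes with separate groups, up to 4 per list by p, up to 5 per test of a difference, and a short series from CRBN to KIF11. TNFRSF17 in that series was not measured, and the genes named to complete a count or a description (SP110, SP100, CXCL11, SAMD9L, GBP5, ISG20, CDC7, E2F7, CSF1R, CD163, CD14, TYROBP) were chosen after their values were seen. The mean over the other 18 arrays, list counts without dexamethasone replicate 3, the macrophage mean without CD68 and a test without small RNA genes were added after seeing the data. Alternatives were a further quantile normalisation, centring, a dim gene filter, array weights, another variance prior, the replicate block, a minimum change, other probe set rules, fewer groups and omission of each array. Human sequences were not used here.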

Additional observations from a re-analysis of the deposited data

Results flagged for a closer look

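In 5 genes the effect of pomalidomide beside dexamethasone differed from its effect alone in a direct limma test with Benjamini-Hochberg adjustment over all genes. SCARNA10 differed by -2.14 ± 0.32 (SE, adjusted p = 0.0115), with -0.24 beside dexamethasone and 1.90 alone. SCARNA1 differed by -4.12 ± 0.65 (limma adjusted p = 0.0123), with dim readings on the lower side of both differences. SCARNA6 differed by -3.15 ± 0.57, with -0.70 beside dexamethasone and 2.44 alone. SCARNA3 differed by -2.54 ± 0.47, with -1.32 beside dexamethasone and 1.22 alone. ZSCAN16 differed by 1.07 ± 0.20, with 0.27 beside dexamethasone and -0.80 alone. SCARNA6, SCARNA3 and ZSCAN16 each had a limma adjusted p of 0.0445, and missed the threshold in 15, 18 and 20 of the 24 omissions of a single array and in 7 of the 9 other alternatives each. The arrays of pomalidomide alone, 3 in number, had the highest residual SDs of the series, and their part in these differences was not tested.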

How the results depend on the processing

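The count of 4 genes for pomalidomide plus dexamethasone against dexamethasone was 28 with array weights (19 higher, 9 lower), 0 with a minimum change of 1.5-fold and 8 without all arrays of pomalidomide alone. It ranged from 0 to 9 when single arrays were left out: 0 without pomalidomide plus dexamethasone replicate 1, 9 without its replicate 2, 1 without its replicate 3 and 8 without filanesib plus pomalidomide replicate 2. It was 4 to 6 under the other alternatives; in the fit to the 6 compared arrays alone, 6 passed, with CD68 and TCN2 shared. The 5 genes whose effect differed from that alone became 2 with quantile normalisation, 2 with centring, 3 with array weights, 1 with the trended and robust prior, 1 with only the groups compared and 2 with every probe set tested, and ranged from 0 to 19 when single arrays were left out (0 without control replicate 3, dexamethasone replicate 1 or pomalidomide plus dexamethasone replicate 1, and 19 without pomalidomide replicate 2). The count of 0 against filanesib plus dexamethasone ranged from 0 to 1. Same-numbered arrays of the 2 compared groups had deviation correlations of -0.14, -0.14 and 0.03. Whether same-numbered arrays shared a batch cannot be told from 3 arrays per group. With the replicate block the counts were 4 and 2. CRBN turned to -0.0050 with array weights and ranged from -0.0895 to 0.102 when arrays were left out, IKZF3 from -0.13 to 0.34, BCL2L11 from -0.27 to 0.23 and MCL1 from -0.0302 to 0.173. The cause of these shifts was not tested. Interferon members with separate, higher groups numbered 21 to 30 and replication members with separate, lower groups 21 to 26 over the alternatives. In the main fit 6.86% of all genes were separate and higher, and 4.35% separate and lower. As given above, these shares were larger without dexamethasone replicate 3, so the ranges alone do not show stability.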

Other observations

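Beyond the lists, several genes were just outside the threshold; they were chosen after their values were seen. SYTL2, which tethers secretory vesicles through RAB27, read 5.13, 4.70 and 5.05 with pomalidomide plus dexamethasone, against 4.31, 4.31 and 4.06 with dexamethasone (0.74 ± 0.14, limma adjusted p = 0.0778). CEACAM1, an inhibitory adhesion receptor, read 6.99, 7.0 and 6.71 with the combination, against 6.13, 6.18 and 5.98 with dexamethasone (0.80 ± 0.16, limma adjusted p = 0.0822). RSPH4A, a radial spoke protein of cilia, read 6.37, 5.81 and 5.70 with the combination, against 5.04, 4.99 and 4.92 with dexamethasone (0.98 ± 0.20, limma adjusted p = 0.09). In all of these every combination array lay above every dexamethasone array. DOCK4, an exchange factor for Rac, was at 0.94 ± 0.20, TDRKH, a Tudor domain protein of the piRNA pathway, at 0.85 ± 0.18, the endolysosomal channel gene TPCN1 at 0.52 ± 0.11 and the methyltransferase-like TMT1A at 0.52 ± 0.11, each with a limma adjusted p of 0.107.

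CXCR3, the receptor of CXCL10, read 7.24, 7.03 and 7.32 with the combination, against 6.20, 6.41 and 5.97 with dexamethasone. The groups were separate, at 1.0 ± 0.22 (limma adjusted p = 0.114). In the other 18 arrays it was at 0.42 ± 0.13 (limma adjusted p = 0.0626). The lysosomal protease legumain (LGMN) was at 0.47 ± 0.19 here and at 0.37 ± 0.11 there (limma adjusted p = 0.727 and 0.0581).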
